A study of Arabidopsis thaliana with 27 samples.

Results

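WRKY genes encode a plant family of transcription factors, proteins that carry the WRKY domain and bind W-box DNA elements. They are best known for regulating immunity, senescence and the responses to abiotic stress, and single members act in root, embryo and seed development. The genes described here were the protein-coding genes on chromosomes 1 to 5 whose symbol in the gene table is WRKY followed by digits, 67 of 27444 genes. WRKY genes that the table lists under another symbol (ABO3, ZAP1, TTG2, TTR1 and RRS1) were therefore not among them.

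The mark studied was H3K27me3, trimethylated lysine 27 of histone H3, which Polycomb group proteins deposit over genes that are kept silent. REF6 is a Jumonji-domain demethylase that removes it, and BRM (BRAHMA) is an ATPase that powers nucleosome remodelling by SWI/SNF complexes. ChIP-seq material came from Arabidopsis thaliana seedlings 14 days old, so that a value is an average over all cell types of a seedling. H3K27me3 had been mapped in the brm-1 ref6-1 double mutant, the brm-1 mutant, the ref6-1 mutant and wild type (written brm ref6, brm, ref6 and WT from here on), with 2 libraries per genotype. BRM-GFP, a fusion with green fluorescent protein, had been mapped in ref6 (2 libraries) and in WT (1 library), and REF6-GFP in brm (2 libraries) and in WT (2 libraries). A label of a BRM-GFP library in ref6 names the transgene as ProBRM-BRM-GFP, and the other labels give no promoter. For each fusion there was also 1 library whose label names no genotype, and it is called the first library here. Nothing says that replicates were separate plantings, so p-values measure the spread between these samples, which may be technical.

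The 8 H3K27me3 lists held 5582 to 13079 peaks and the 9 GFP lists 1466 to 12230 peaks. No list carries read depth, so a missing peak does not show that a protein or mark was absent. The ref6 H3K27me3 libraries differed from each other. Replicate 1 had peaks with a median width of 289 bp over 5.31 Mb, and replicate 2 had peaks with a median width of 1575 bp over 11.5 Mb. In these libraries 13 and 30 WRKY genes were marked (7.56% and 15.0% of all genes), a marked gene being one with peaks over 50% or more of its body. The other libraries had 25 and 20 marked WRKY genes in brm ref6 (13.7% and 9.61% of all genes), 29 and 27 in brm (14.1% and 12.1%), and 26 and 25 in WT (10.6% and 9.5%). Every statement about ref6 below rests on a pair of libraries that stand this far apart.

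In WT the mark lay over a large share of the family. Both WT libraries marked 25 of the 67 WRKY genes (37.3%), against 8.93% of all protein-coding genes. Per library the share of WRKY genes was 19.4% in ref6 replicate 1 and 29.9% or more in the other 7. Over both libraries of a genotype, 20 WRKY genes were marked in brm ref6 (9.41% of all genes), 27 in brm (11.7%), 13 in ref6 (7.44%) and 25 in WT.

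A core of 11 WRKY genes was marked in all 8 libraries: WRKY12, WRKY13, WRKY14, WRKY28, WRKY31, WRKY35, WRKY48, WRKY56, WRKY59, WRKY62 and WRKY71. The share of all genes marked in all 8 was not counted, and it cannot exceed the 7.44% marked in both ref6 libraries. WRKY12 and WRKY13 act in stem cell-wall formation and in flowering time. WRKY12 had 100% and 98.2% of its body covered in brm ref6, 100% and 100% in brm, 93.7% and 100% in ref6, and 94.1% and 100% in WT. WRKY62, a negative regulator of basal defence, had 100% and 83.3% in brm ref6, 100% and 95.8% in brm, 80.4% and 100% in ref6, and 99.8% and 100% in WT. For both genes the genotypes overlapped and coverage stayed high throughout. WRKY71, which promotes shoot branching and flowering, had 92.2% and 78.6% in brm ref6, 99.3% and 100% in brm, 64.8% and 100% in ref6, and 99.4% and 100% in WT. Its lowest value came from ref6 replicate 1.

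A further 6 genes, WRKY8, WRKY24, WRKY36, WRKY42, WRKY61 and WRKY68, were marked in 7 of the 8 libraries. Each of them was below 50% in ref6 replicate 1 and nowhere else. How many of all genes were marked in 7 libraries was not counted. WRKY42, a regulator of phosphate responses, had 48.0% there and 100% in ref6 replicate 2, against 99.0% and 91.9% in WT. WRKY68 had 20.3% and 100% in the ref6 libraries, against 87.6% and 82.7% in WT. WRKY38 (a negative regulator of basal defence that acts with WRKY62), WRKY49 and WRKY72 were marked in both brm and both WT libraries, and fell short of 50% in ref6 replicate 1 (49.3%, 33.4% and 26.8%) and in brm ref6 replicate 2 (49.5%, 20.4% and 47.1%).

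At the other end, 29 WRKY genes had no H3K27me3 coverage in any library and WRKY27, WRKY30 and WRKY47 had some but were never marked. Of all protein-coding genes 18.6% were marked in any library, against 52.2% of WRKY genes. Being unmarked was thus more common among all genes than in this family. The share of all genes without coverage in any library was not counted. In all, 32 WRKY genes were marked in none of the 8 libraries. The unmarked genes included well-studied immune regulators: WRKY18, WRKY40 and WRKY60, which act together in defence and abscisic acid responses, WRKY33, which drives camalexin synthesis, WRKY46, WRKY53 and WRKY70. All of these had 0 coverage in all 8 libraries. Other defence regulators were marked. Of the 21 in the defence list used below, 6 were marked in both WT libraries (28.6%, against 8.93% of all genes), WRKY38 and WRKY62 among them.

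**Figure D1:**
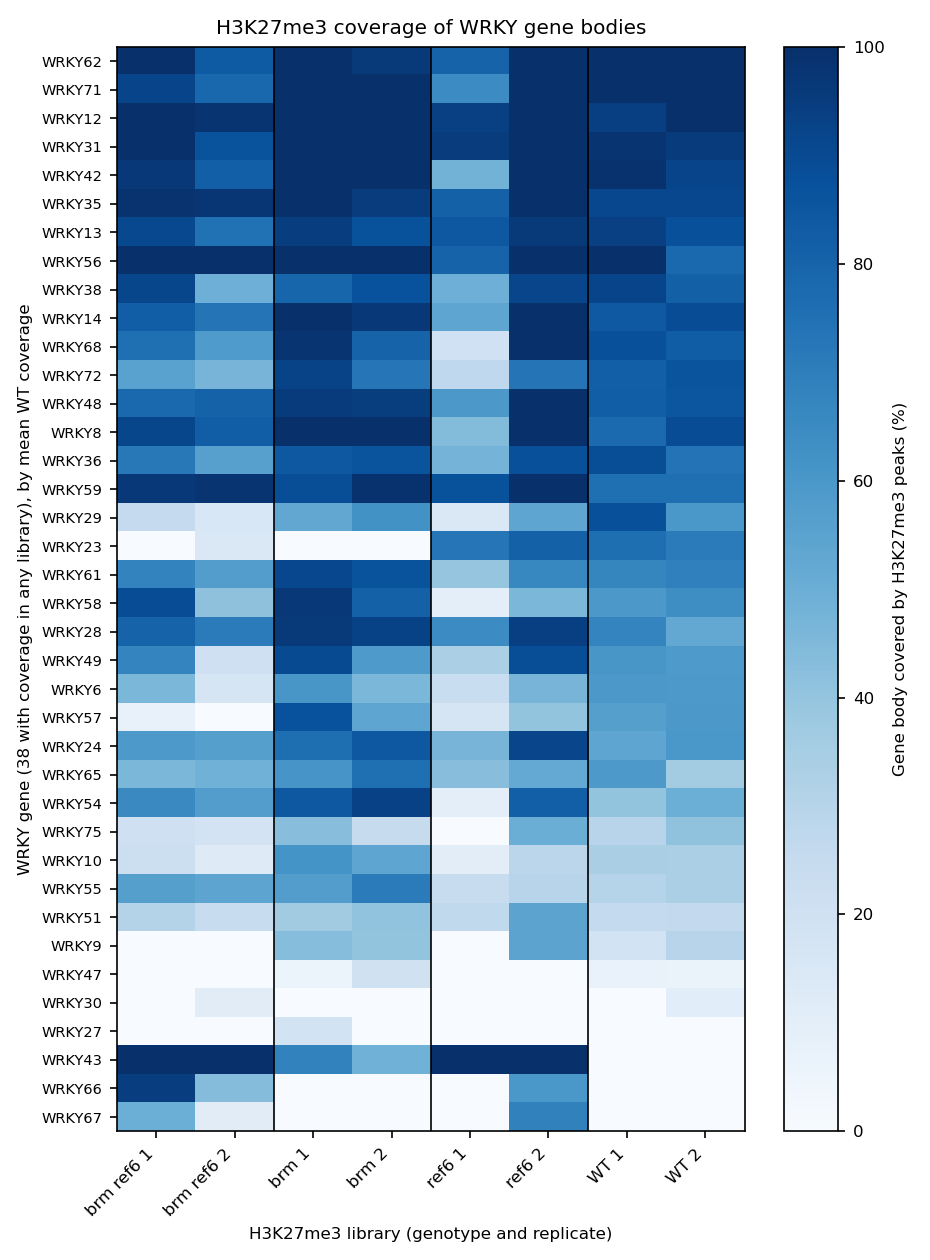
H3K27me3 coverage of the 38 WRKY genes with any coverage, in percent of the gene body (colour), for each of the 8 libraries (columns), ordered by mean WT coverage. WRKY23 is blank in both brm libraries, WRKY43 is blank in the WT libraries alone, and ref6 replicate 1 is paler than the others over most marked genes.

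The marked genes were spread unevenly over the family's structural groups. These groups follow the usual division by number of WRKY domains, type of zinc finger and sequence relatedness. In group IIc 13 of 17 genes were marked in both WT libraries and in group IIb 6 of 8. In group IIe it was 3 of 7, in group III 2 of 12 and in group I 1 of 13. No gene of group IIa (3 genes) or group IId (7 genes) was marked in any library. Among all genes 8.93% were marked in both WT libraries and 18.6% in any library. The share of group I (7.69%) was thus near that of all genes, and groups as small as IIa and IId can lack marked genes at these rates.

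GFP peaks were also counted by group. A peak was assigned to a gene if it touched the gene body or lay within 1000 bp of it. First-library BRM-GFP peaks lay at 44.1% of all protein-coding genes and REF6-GFP peaks at 30.1%. In the family BRM-GFP peaks lay at all 3 genes of group IIa, at 6 of 7 in group IId, 9 of 13 in group I, 5 of 7 in group IIe, 4 of 8 in group IIb, 7 of 17 in group IIc and 2 of 12 in group III. REF6-GFP peaks lay at 2 of 3 in group IIa, 4 of 7 in group IId, 8 of 13 in group I, 4 of 12 in group III, 1 of 7 in group IIe, 2 of 17 in group IIc and 0 of 8 in group IIb. The BRM-GFP shares of groups IIb (50%) and IIc (41.2%) and the REF6-GFP share of group III (33.3%) were near those of all genes.

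**Figure D2:**
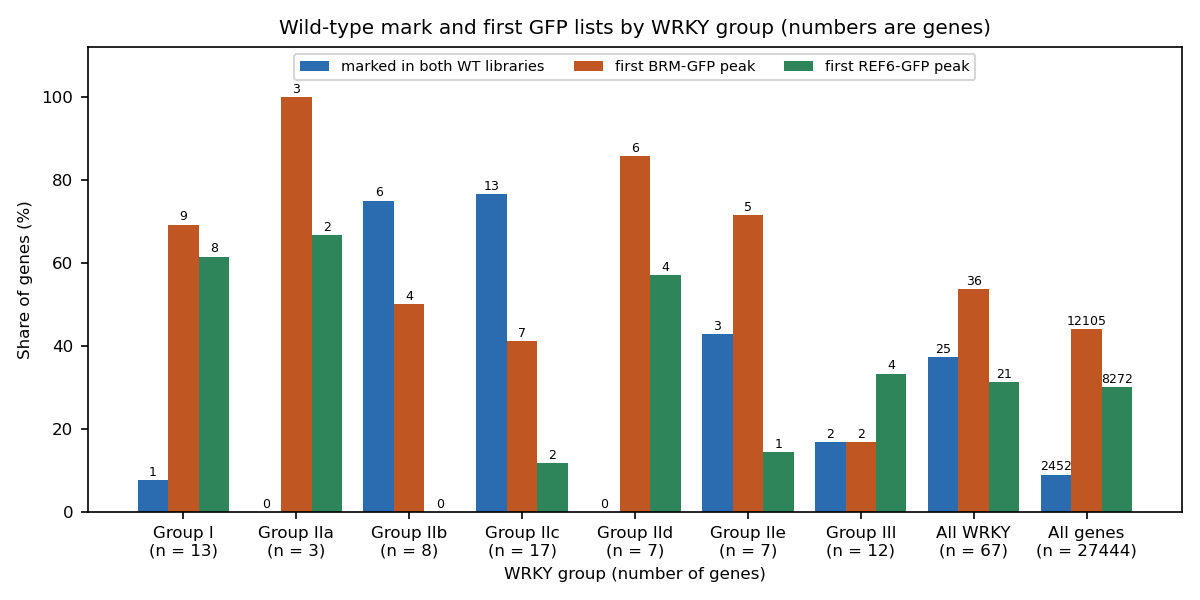
Share of genes (%) that were marked by H3K27me3 in both WT libraries, had a peak in the first BRM-GFP library or had a peak in the first REF6-GFP library, by WRKY group, for all 67 WRKY genes and for all 27444 protein-coding genes, with the number of genes above each bar. Groups IIb and IIc have the tallest H3K27me3 bars (6 of 8 and 13 of 17 genes), and groups IIa and IId have none.

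By function, 6 of the 21 listed defence regulators were marked in both WT libraries, 2 of 9 senescence regulators, 4 of 7 developmental regulators, 2 of 4 regulators of root and nutrient responses and 1 of 8 regulators of abscisic acid and abiotic stress responses. Among all genes 8.93% were marked, and among all 67 WRKY genes 37.3%. The defence (28.6%), senescence (22.2%) and abscisic acid (12.5%) lists thus lay below the family as a whole. First-library BRM-GFP peaks lay at 15 of the 21 defence regulators, 5 of 9 senescence regulators, 3 of 7 developmental regulators, 2 of 4 root and nutrient regulators and all 8 of the abscisic acid and abiotic stress list, against 44.1% of all genes. REF6-GFP peaks lay at 6 of the defence regulators, 1 senescence regulator, 1 developmental regulator, none of the root and nutrient regulators and 6 of the abscisic acid and abiotic stress list, against 30.1% of all genes. The BRM-GFP share of the developmental list (42.9%) and the REF6-GFP share of the defence list (28.6%) were near those of all genes. Some genes stand in more than one list.

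Most marked WRKY genes had no marked neighbour under the 50% rule. Of the 25 genes marked in both WT libraries, 19 (76.0%) had neither adjacent protein-coding gene marked in both WT libraries, against 50.1% of the 2452 marked genes of the whole genome. Some neighbours of these 19 genes were covered in part, such as UPB1 beside WRKY23 (45.7% and 37.3% in WT). WRKY31 was the 1 member with both neighbours marked.

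The comparison of the mutants with WT asked which genes lose or gain the mark without BRM, without REF6 or without both. A gene was called lost when marked in both WT libraries and in neither mutant library, and gained in the reverse case. Where a library was left out, these calls were counted for WRKY genes only, so no share of all genes stands beside them. With 2 libraries against 2, an exact permutation test of a single gene cannot give a p below 0.33. Coverage was therefore also compared by limma across the 6263 protein-coding genes with a mean coverage of at least 5%, with Benjamini-Hochberg adjustment over all of them and a threshold of 0.05. Of the WRKY genes 35 passed that filter. WRKY43, WRKY66 and WRKY67 had 0 coverage in both WT libraries and passed it through the mutants alone, so that their place in the test already depends on the difference.

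In brm, WRKY23 was the 1 WRKY gene called lost (0.051% of all genes were), and WRKY10, WRKY54 and WRKY55 were called gained (1.44% of all genes). Without brm replicate 1, 2 WRKY genes were called lost. In the limma test of brm minus WT no gene of 6263 passed the threshold (0.0% in either direction). At an unadjusted p under 0.05 there were 516 genes, 5 of them WRKY genes. The median difference in coverage was 11.03 percentage points over the 35 WRKY genes and 7.49 over all genes tested.

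In ref6, WRKY6, WRKY57 and WRKY58 were called lost (0.375% of all genes) and WRKY43 was called gained (1.3%). Both counts depend on the unequal ref6 libraries, which marked 7.56% and 15.0% of all genes. Without ref6 replicate 2, 13 WRKY genes were called lost and 1 gained, and without ref6 replicate 1, 3 were called lost and 7 gained. In the limma test of ref6 minus WT, 1.71% of genes were higher in ref6 and 0.24% lower, and WRKY43 was the 1 WRKY gene past the threshold, on the higher side. The median difference was −4.21 percentage points over the WRKY genes and 0.0 over all genes.

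In brm ref6, WRKY6, WRKY23, WRKY29 and WRKY57 were called lost (0.627% of all genes) and WRKY43, WRKY54 and WRKY55 gained (1.81%). Without brm ref6 replicate 1, 8 WRKY genes were called lost. Limma put 1.93% of genes higher and 0.128% lower in brm ref6 than in WT, among them WRKY43 (higher) and WRKY23 (lower). The median difference was −5.46 percentage points over the WRKY genes and 1.71 over all genes. The comparisons with WT share the WT libraries, so they are not independent of one another.

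The double mutant was also set against each single mutant. Against brm, WRKY10, WRKY29, WRKY57 and WRKY65 were called lost (1.61% of all genes) and no WRKY gene gained (1.26%). Without brm ref6 replicate 1 the lost count was 8, and without brm replicate 1 or without brm ref6 replicate 2 there was 1 gained gene. By limma 2.28% of genes were higher and 1.17% lower in brm ref6 than in brm, and no WRKY gene passed. At an unadjusted p under 0.05 there were 1319 genes, 4 of them WRKY genes. Against ref6, WRKY23 was called lost (0.0729%) and WRKY55 gained (0.171%). Without ref6 replicate 1, 7 WRKY genes were called lost, without ref6 replicate 2, 8 were called gained, and without brm ref6 replicate 2, 2 were. No gene passed the limma test of brm ref6 minus ref6 (0.0% in either direction, 239 genes and 2 WRKY genes at an unadjusted p under 0.05).

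**Figure D3:**
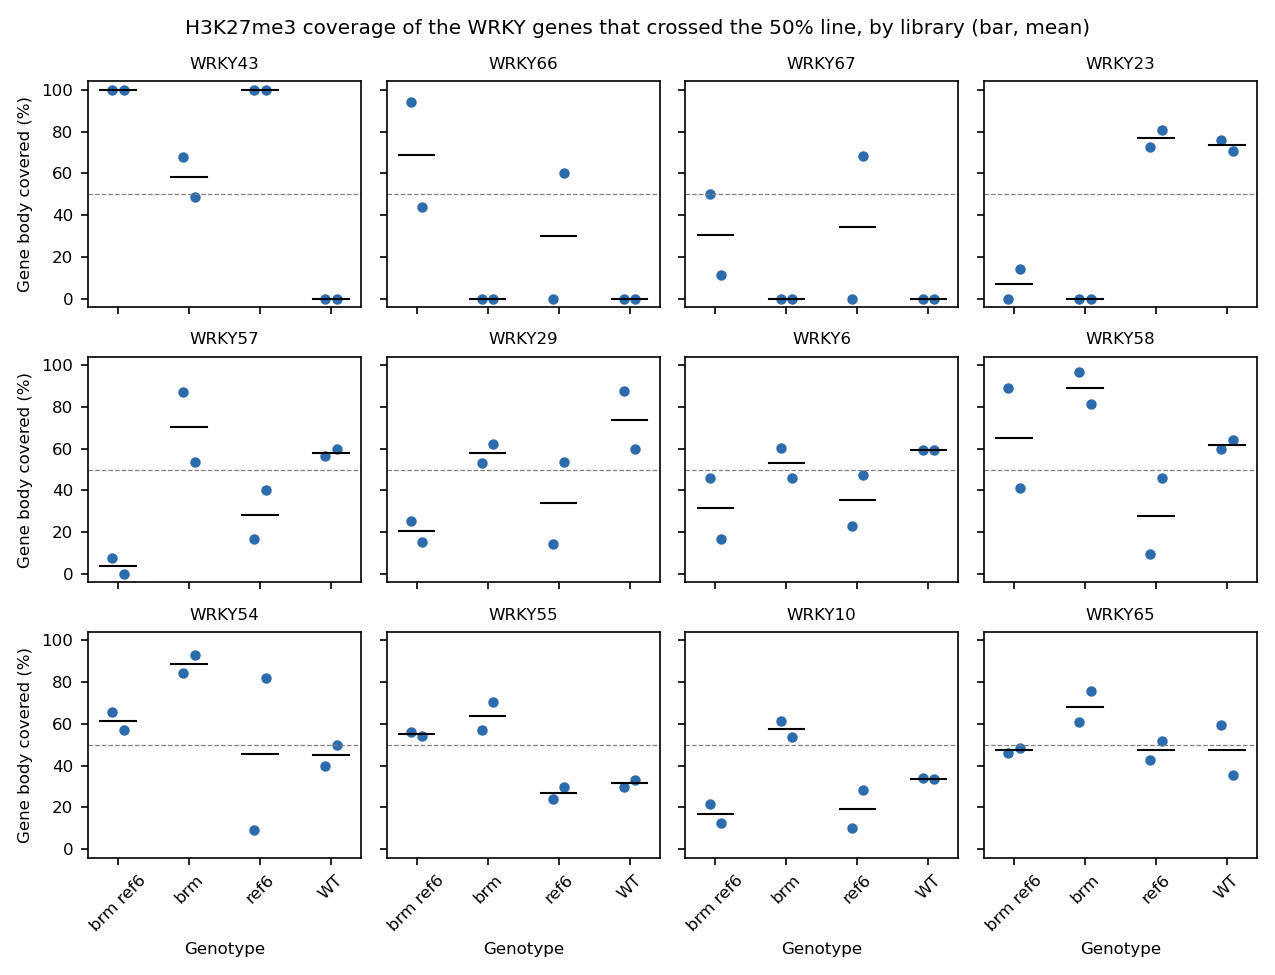
H3K27me3 coverage (percent of the gene body) of 12 WRKY genes in each library (points), with the mean of each genotype (bar) and the 50% line that defines a marked gene (dashed). Both brm ref6 and both brm points of WRKY23 lie below 15% and its ref6 and WT points above 70%, whereas the 2 ref6 points lie far apart for WRKY54, WRKY58, WRKY66 and WRKY67.

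WRKY23 is an auxin-responsive gene with roles in embryo and root development. Its body (AT2G47260) was covered to 0% and 14.4% in brm ref6, 0% and 0% in brm, 72.7% and 80.9% in ref6, and 75.8% and 70.9% in WT. The genotypes with brm-1 and those without it did not overlap. The difference of brm ref6 minus WT was −66.17 percentage points (SE 11.64; limma, adjusted p = 0.0449). It passed in 3 of the 8 fits that each left out 1 library: the adjusted p was 0.0165 and 0.017 without ref6 replicate 1 or 2 and 0.0491 without brm ref6 replicate 2. It was 0.304 and 0.268 without WT replicate 1 or 2, 0.108 and 0.112 without brm replicate 1 or 2, and 0.166 without brm ref6 replicate 1.

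The other contrasts at WRKY23 were as large and did not pass. The difference was −73.38 percentage points for brm minus WT (limma, adjusted p = 0.116) and −69.59 for brm ref6 minus ref6 (adjusted p = 0.356). Over the genotypes with brm-1 minus those without it was −71.48 (SE 8.23, adjusted p = 0.105), a contrast in which no gene of the 6263 passed and 554 had an unadjusted p under 0.05. Without ref6 replicate 1 or 2 the last of these had adjusted p = 0.0166 and 0.015, and brm ref6 minus ref6 had 0.0424 and 0.0339. For ref6 minus WT the difference was 3.42 percentage points (adjusted p = 1.0), and it was −0.72 without ref6 replicate 2.

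At the WRKY23 locus brm ref6 replicate 2 had 2 short peaks of 156 and 175 bp (scores 56.5 and 51.2), close to the minimum score of 50. These scores are the authors' own (MACS p-values expressed as −10 log10 p) and only describe peaks here. In ref6 the longest peaks lay at chr2:19404874-19405857 in replicate 1 (score 517) and chr2:19403497-19406660 in replicate 2 (score 712). In WT they lay over the same stretch, at chr2:19404893-19406305 in replicate 1 (score 724) and chr2:19404881-19405999 in replicate 2 (score 608). The first BRM-GFP list had its best WRKY23 peak at chr2:19406146-19407177 (score 732), which overlapped the high-coordinate end of the marked stretch. A weak later peak was listed in ref6 replicate 1 at chr2:19406867-19407040 (score 51.3), and there was none in ref6 replicate 2 or in the later WT library. No REF6-GFP list had a peak there. Of the genes next to WRKY23, AT2G47250 had 0 coverage in all 8 libraries and UPB1, a regulator of root growth, had 0% and 0% in brm ref6, 69.2% and 32.3% in brm, 0% and 0% in ref6, and 45.7% and 37.3% in WT. UPB1 thus had coverage in brm, where WRKY23 had none.

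WRKY43, which acts in seed germination, had 100% of its body covered in both brm ref6 libraries, 68.1% and 48.5% in brm, 100% in both ref6 libraries, and 0% in both WT libraries. It was the 1 WRKY gene with full coverage in every library that carries ref6-1 and none in WT. The difference was 100 percentage points for ref6 minus WT (SE 12.88; limma, adjusted p = 0.0254) and also for brm ref6 minus WT (adjusted p = 0.0226). Over the genotypes with ref6-1 minus those without it the difference was 70.87 percentage points (SE 9.11, adjusted p = 0.00736), a contrast in which 7.23% of genes were higher and 3.58% lower. For brm minus WT it was 58.26 percentage points and did not pass (adjusted p = 0.21).

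These calls at WRKY43 changed with the library that was left out, and the reason was not tested. For ref6 minus WT the adjusted p by limma was 0.248 and 0.238 without WT replicate 1 or 2, and 0.0819 and 0.0842 without brm replicate 1 or 2. It was 0.0125 and 0.0137 without ref6 replicate 1 or 2, and 0.0485 and 0.0479 without brm ref6 replicate 1 or 2. For brm ref6 minus WT it passed without ref6 replicate 1 or 2 (0.0101 and 0.00991) and without brm ref6 replicate 2 (0.0441), and missed without WT replicate 1 or 2 (0.243 and 0.247), without brm replicate 1 or 2 (0.0836 and 0.0851) and without brm ref6 replicate 1 (0.118). The contrast over ref6-1 passed in 6 of the 8 fits and had 0.0561 and 0.0513 without WT replicate 1 or 2.

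A REF6-GFP peak lay at the low-coordinate edge of WRKY43. The first list had it at chr2:18956224-18957441 (score 874), which ran into the gene body. The later peaks lay outside the body, at chr2:18956631-18957167 in brm replicate 1 (score 242; none in brm replicate 2), and at chr2:18956646-18956949 and chr2:18956716-18956941 in WT (scores 103 and 92.2). The H3K27me3 peak began close by, at 18957160 in brm ref6 replicate 1 (chr2:18957160-18958381, score 745) and at 18957097 in ref6 replicate 1 (chr2:18957097-18957951, score 403). No BRM-GFP list had a peak at WRKY43.

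WRKY66 and WRKY67, both of group III, also had coverage in brm ref6 and ref6 and none in WT, but at lower values. Unlike WRKY43 they had none in brm. WRKY66 had 94.2% and 43.7% in brm ref6, 0% in both brm libraries, 0% and 60.1% in ref6, and 0% in both WT libraries. WRKY67 had 49.96% and 11.3% in brm ref6, 0% in both brm libraries, 0% and 68.4% in ref6, and 0% in both WT libraries. Every library with coverage carried ref6-1, but ref6 replicate 1 had none at either gene. The difference of brm ref6 minus WT did not pass at WRKY66 (68.93 percentage points, SE 23.46; limma, adjusted p = 0.199) or at WRKY67 (30.63, SE 22.89; adjusted p = 0.629). In every brm ref6 and ref6 library that had it, the mark at WRKY67 lay within the first-list REF6-GFP peak at chr1:24828300-24829896 (score 1945), for example at chr1:24828696-24829274 in brm ref6 replicate 1. At WRKY66 the first-list REF6-GFP peak was chr1:30296499-30298761 (score 1646), and the later REF6-GFP peaks lay beyond the gene body. The low-coordinate neighbour of WRKY66, AT1G80580, was covered to 99.2% or more in all 8 libraries, and its mark ended short of WRKY66 in each.

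**Figure D4:**
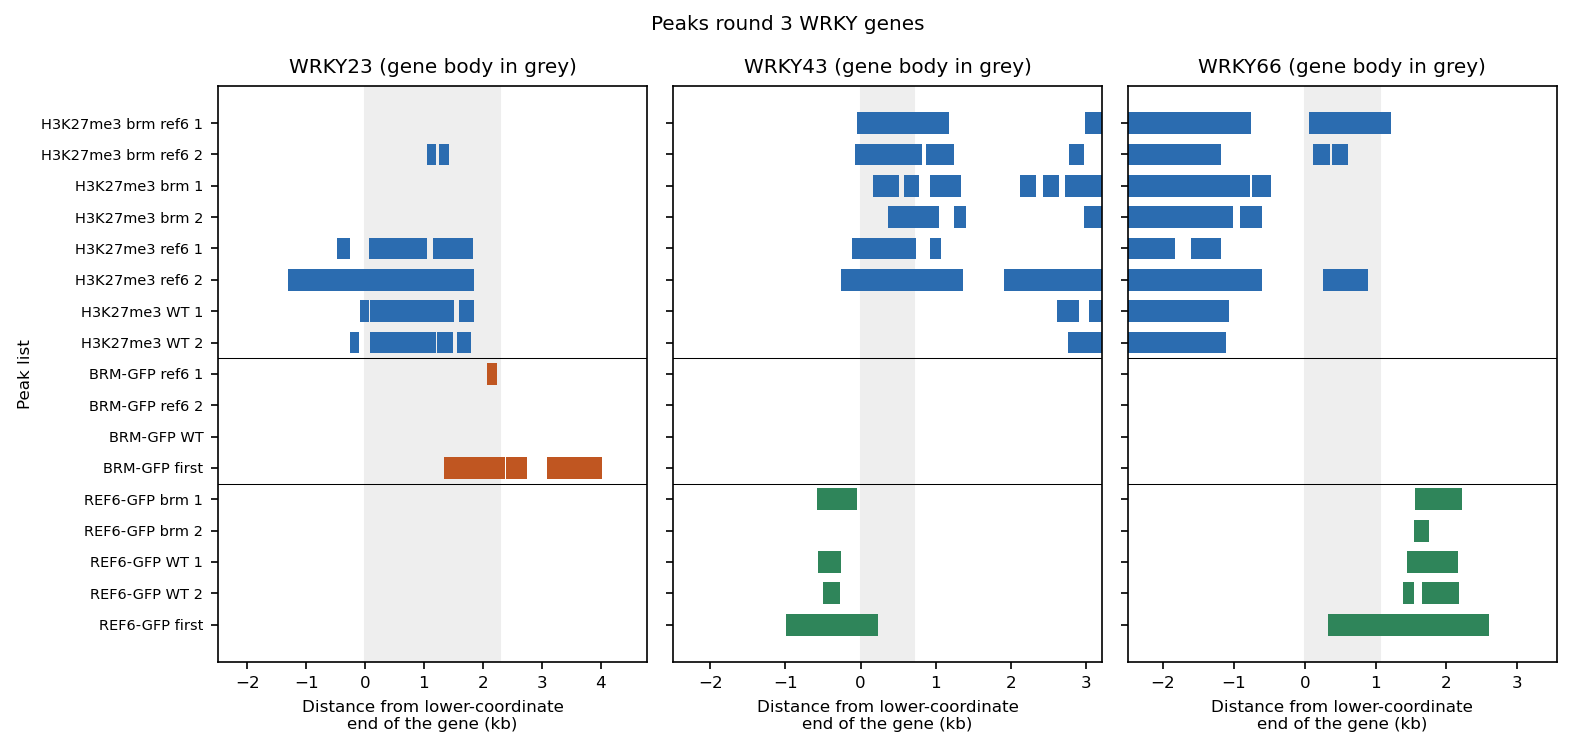
Peaks of the 17 lists round WRKY23, WRKY43 and WRKY66, as distance in kb from the low-coordinate end of the gene (bars, H3K27me3 blue, BRM-GFP orange, REF6-GFP green, gene body grey); the direction of transcription is not drawn. WRKY23 has no H3K27me3 peak in brm and long ones in ref6 and WT, with BRM-GFP at its high-coordinate end. At WRKY43 and WRKY66 the first-list REF6-GFP peak runs into the body and the later ones lie beside it. Both genes have H3K27me3 over the body in brm ref6.

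The other genes called lost against WT were WRKY57, WRKY29, WRKY6 and WRKY58. WRKY57, which acts in drought tolerance and in jasmonate-induced senescence, had 7.5% and 0% in brm ref6, 87.3% and 53.6% in brm, 16.8% and 40.1% in ref6, and 56.4% and 59.6% in WT. All 4 libraries with ref6-1 lay below all 4 without it. That contrast was −48.11 percentage points (SE 11.01; limma, adjusted p = 0.0411). It held without brm replicate 2 (0.0469) and without ref6 replicate 2 (0.0347) and was lost in the other 6 fits that left out 1 library, with adjusted p from 0.0692 without ref6 replicate 1, through 0.106 without brm replicate 1, 0.109 and 0.115 without brm ref6 replicate 2 or 1, to 0.147 and 0.149 without WT replicate 1 or 2. The single contrasts did not pass: −54.23 for brm ref6 minus WT (adjusted p = 0.135), −66.67 for brm ref6 minus brm (0.0703) and −29.54 for ref6 minus WT (0.492).

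WRKY57 also had BRM-GFP peaks. The first-list peak at chr1:26056953-26058787 had a score of 1035, and the later lists had one in both ref6 libraries (scores 90.1 and 178) and none in WT. Its high-coordinate neighbour CLE10, a peptide-hormone gene, had 66.7% and 48.1% in brm ref6, 100% and 80.6% in brm, 27% and 0% in ref6, and 85.5% and 81.0% in WT.

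WRKY29 acts downstream of flagellin perception together with WRKY22. It had 25.2% and 15.4% in brm ref6, 53.0% and 62.4% in brm, 14.5% and 53.7% in ref6, and 87.7% and 59.9% in WT. Brm ref6 lay below WT and brm in both libraries, and the ref6 libraries fell on either side of 50%. The difference of brm ref6 minus WT was −53.43 percentage points (SE 17.56) and did not pass (limma, adjusted p = 0.184).

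WRKY6, a regulator of senescence and phosphate transport, had 45.9% and 16.8% in brm ref6, 60.4% and 45.9% in brm, 23.1% and 47.2% in ref6, and 59.6% and 59.1% in WT. Its ref6 minus WT difference of −24.16 percentage points did not pass (limma, adjusted p = 0.59). WRKY58 had 89.1% and 41.1% in brm ref6, 96.9% and 81.2% in brm, 9.4% and 46.1% in ref6, and 59.7% and 63.9% in WT, and its ref6 minus WT difference was −34.08 (adjusted p = 0.566). Both genes were called lost in ref6 with 1 library just under the 50% line, at 47.2% and 46.1%, so these calls are close ones.

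The genes called gained in brm included a pair of neighbours. WRKY54, which acts with WRKY70 as a negative regulator of senescence, and WRKY55, a regulator of salicylate accumulation and senescence, lie 919 bp apart and had separate peaks. WRKY54 had 65.6% and 57.1% in brm ref6, 84.6% and 93.2% in brm, 9.4% and 81.8% in ref6, and 39.9% and 49.95% in WT. WRKY55 had 56.3% and 54.2% in brm ref6, 57.1% and 70.7% in brm, 24.1% and 29.6% in ref6, and 29.9% and 33.2% in WT. At WRKY55 all libraries with brm-1 lay above all libraries without it, and at WRKY54 ref6 replicate 2 overlapped them. The second WT library of WRKY54 fell just short of the 50% line. For brm minus WT the difference was 43.98 percentage points at WRKY54 (SE 23.39; limma, adjusted p = 0.786) and 32.37 at WRKY55 (SE 11.74; adjusted p = 0.486).

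WRKY10 (MINI3) controls endosperm growth and seed size. It had 21.7% and 12.4% in brm ref6, 61.4% and 53.8% in brm, 10.2% and 28.3% in ref6, and 34.0% and 33.5% in WT. The brm libraries were the highest, but neither brm minus WT (23.86 percentage points; limma, adjusted p = 0.747) nor brm ref6 minus brm (−40.53; adjusted p = 0.11) passed. The second of these passed without ref6 replicate 1 or 2 (0.0291 and 0.0292). WRKY65 had 46.1% and 48.7% in brm ref6, 60.8% and 75.7% in brm, 42.9% and 52.0% in ref6, and 59.4% and 35.6% in WT, so that its call against brm turned on values just under 50%.

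WRKY members that were called lost mostly had BRM-GFP peaks of the first list. All 4 genes lost in brm ref6 against WT had one (28.5% of the 172 genes lost in the whole genome had), and so did 2 of the 3 lost in ref6 (28.2% of 103) and WRKY23 in brm (64.3% of 14). None of these genes had a first-list REF6-GFP peak, and few lost genes of the whole genome did (5.23% in brm ref6, 5.83% in ref6 and 21.4% in brm). A gene lost against WT is by definition one of the 25 WRKY genes marked in both WT libraries. Of those, 10 (40.0%) had a first-list BRM-GFP peak and 1 (4.0%) a REF6-GFP peak. The absence of REF6-GFP was thus nearly fixed by the call. WRKY6, WRKY23 and WRKY57 each count in more than 1 comparison. Among the genes gained in brm ref6, WRKY43 had a REF6-GFP peak (61.2% of all 498 gained genes had), and WRKY54 and WRKY55 had no GFP peak in any list.

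The GFP lists described where the proteins themselves were found. A peak in at least 1 of the 9 lists lay at 43 WRKY genes, and 4 genes had neither a GFP peak nor any H3K27me3 coverage in any list. The matching shares of all genes were not counted, and the first BRM-GFP list alone reached 44.1% of them. First-list BRM-GFP peaks lay at 36 WRKY genes (53.7%, against 44.1% of all genes) and first-list REF6-GFP peaks at 21 (31.3%, against 30.1%), so neither share stood far from that of all genes. The median score of the peaks at WRKY genes was 217 for BRM-GFP, against 155 for all peaks of that list, and 557 for REF6-GFP, against 223.

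The highest BRM-GFP scores of the first list were at group IId genes, which encode calmodulin-binding WRKY proteins. WRKY11 had a score of 3100 at chr4:15289438-15292207, WRKY15 2120 at chr2:9924404-9927164, WRKY7 1771 at chr4:12571512-12573833 and WRKY17 1065 at chr2:10437635-10439669. WRKY7, WRKY11 and WRKY17 are negative regulators of basal resistance. The next were WRKY57 (1035), WRKY48 (1002), WRKY22 (896), WRKY25 (796), WRKY40 (782) and WRKY69 (763).

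The highest REF6-GFP scores of the first list were at WRKY46 (3100 at chr2:19043298-19045052), a regulator of basal resistance and osmotic stress responses, and WRKY60 (3100 at chr2:10630549-10632160). A score of exactly 3100 recurred at WRKY11 for BRM-GFP and at some H3K27me3 peaks, such as that of WRKY31 in brm replicate 1. It may be a set value, so peaks that share it cannot be ranked. Some H3K27me3 peaks scored higher, such as those at WRKY72 in brm replicate 1 (3169) and WRKY35 in brm ref6 replicate 1 (3164). WRKY67 had 1945, WRKY15 1691, WRKY66 1646, WRKY59 1167 and WRKY43 874. WRKY19, which encodes a fusion of a resistance protein and a WRKY domain, had 743, WRKY33 had 610 and WRKY74 had 597.

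Both fusions had a first-list peak at 14 WRKY genes (20.9%, against 16.9% of all genes): WRKY2, WRKY3, WRKY4, WRKY15, WRKY18, WRKY19, WRKY21, WRKY22, WRKY25, WRKY26, WRKY33, WRKY39, WRKY46 and WRKY60. At 10 of them a BRM-GFP peak overlapped a REF6-GFP peak. The exceptions were WRKY2, WRKY4, WRKY18 and WRKY19, where the best peaks lay 1364 to 9015 bp apart. At WRKY22 the overlap was 1603 bp (BRM-GFP chr4:522727-524329, REF6-GFP chr4:522682-524592), at WRKY15 1555 bp and at WRKY33 1211 bp. WRKY25, WRKY26, WRKY33 and WRKY39 are regulators of heat tolerance, and WRKY3 and WRKY4 of resistance to necrotrophic fungi.

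The mark in WT and REF6-GFP were found on largely different WRKY genes. Of the 25 WRKY genes marked in both WT libraries, 1 had a first-list REF6-GFP peak (4.0%, against 10.2% of all marked genes), and this was WRKY59. BRM-GFP peaks lay at 10 of the 25 (40.0%, against 19.0% of all marked genes): WRKY6, WRKY13, WRKY23, WRKY28, WRKY29, WRKY36, WRKY48, WRKY49, WRKY57 and WRKY61. Of the 33 WRKY genes with no WT coverage, 23 had a BRM-GFP peak (69.7%, against 48.8% of all such genes), 20 a REF6-GFP peak (60.6%, against 33.5%) and 14 both (42.4%, against 19.5%). All 14 genes with both fusions were thus free of the mark in WT.

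WRKY59 had the mark in every H3K27me3 library and a nearby peak in every REF6-GFP list. All of these REF6-GFP peaks lay outside the gene body. The first-list peak ended at 9333440, and the WT H3K27me3 peaks over the body began at 9333931 and 9333779. Its coverage was 96.5% and 98.2% in brm ref6, 88.7% and 99.1% in brm, 87.0% and 100% in ref6, and 75.8% in both WT libraries. Its REF6-GFP scores were 673 and 58.6 in brm, 477 and 242 in WT, and 1167 in the first list (chr2:9331947-9333440). All mutant values of coverage lay above both WT values.

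**Figure D5:**
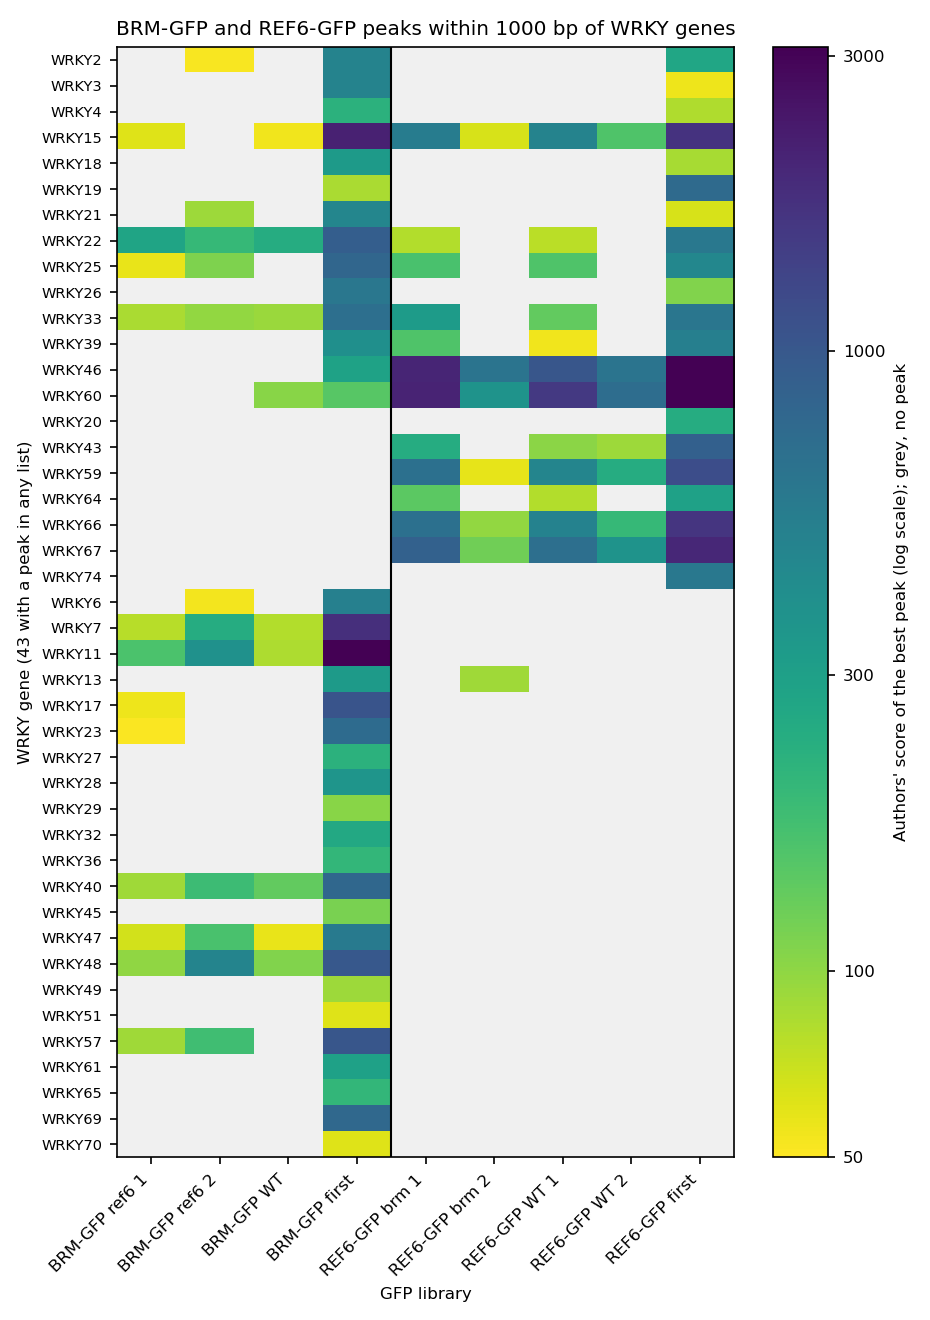
Authors' score of the best BRM-GFP or REF6-GFP peak within 1000 bp of the 43 WRKY genes with a peak in any of the 9 lists (colour, log scale; grey, no peak). WRKY46 and WRKY60 reach 3100 for REF6-GFP and WRKY11 reaches 3100 for BRM-GFP, and the later lists are filled at few genes.

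The later libraries asked whether each protein depends on the other. REF6-GFP peaks lay at 12 and 7 WRKY genes in brm (14.8% and 8.14% of all genes) and at 12 and 7 in WT (11.9% and 8.84%). BRM-GFP peaks lay at 12 and 12 in ref6 (5.79% and 6.3%) and at 9 in WT (5.43%). REF6-GFP peaks were found in all 4 later lists at 6 WRKY genes, WRKY15, WRKY46, WRKY59, WRKY60, WRKY66 and WRKY67 (5.38% of all genes). WRKY60 had scores of 2049 and 374 in brm, against 1572 and 705 in WT. WRKY46 had 2010 and 637 in brm, against 1035 and 631 in WT. At both genes the scores in brm and in WT overlapped, and scores are not compared between libraries. No WRKY gene had a REF6-GFP peak in neither brm library and both WT libraries (0.0984% of all genes) or in both brm libraries and neither WT library (0.317%). Leaving out brm replicate 1 gave 1 WRKY gene in each of these classes (WRKY43 and WRKY13). The replicates with more peaks, brm replicate 1 and WT replicate 1, had the same 12 WRKY genes.

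BRM-GFP peaks were found in all 3 later lists at 7 WRKY genes, WRKY7, WRKY11, WRKY22, WRKY33, WRKY40, WRKY47 and WRKY48 (2.13% of all genes). WRKY22 had scores of 277 and 196 in ref6, against 241 in WT. WRKY48, a repressor of basal defence, had 99.0 and 480 in ref6, against 109 in WT, and was the 1 gene of the 7 that was marked in both WT libraries. WRKY60 had a BRM-GFP peak in neither ref6 library and 1 in WT with a score of 103.5 (2.23% of all genes had this pattern). WRKY25 and WRKY57 had one in both ref6 libraries and not in WT (1.22% of all genes). The single later WT library had 1466 peaks, against 2507 and 2564 in ref6, and with 1 WT library these differences have no replicate check.

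Genes that WRKY proteins work with or act on were described for comparison, from 40 listed genes of immune receptors and kinases, salicylate signalling, camalexin synthesis and WRKY-binding VQ proteins. First-list BRM-GFP peaks lay at 32 of the 40 (80%, against 44.1% of all genes) and REF6-GFP peaks at 18 (45%, against 30.1%). In both WT libraries 4 were marked (10%, against 8.93% of all genes), a share near that of all genes. All 11 receptor and kinase genes, among them the flagellin receptor gene FLS2 (score 520) and the co-receptor gene BAK1 (score 903), had a BRM-GFP peak and none was marked. The marked genes were PR1, a salicylate-response marker, and the camalexin-pathway genes CYP71A12, CYP79B2 and CYP79B3.

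Of the 40 genes, 1 was called gained, in brm ref6 against WT (1.81% of all genes) and against brm (1.26%), and none was called lost. PR5, a pathogenesis-related gene induced by salicylate, had 97.1% and 91.6% in brm ref6, 45.2% and 41.4% in brm, 25.7% and 55.7% in ref6, and 0% in both WT libraries. It had a first-list REF6-GFP peak with a score of 2321. PBS3, a gene of salicylate synthesis, had 52.6% and 41.6% in brm ref6, 0% in both brm libraries, 32.2% and 69.0% in ref6, and 0% in both WT libraries. Both genes entered the fit through the mutants alone, so that their place in it already depends on the difference. At PR5 brm ref6 minus WT was 94.38 percentage points (SE 13.77; limma, adjusted p = 0.0297), and the contrast over ref6-1 was 45.90 (SE 9.74, adjusted p = 0.032). At PBS3 the contrast over ref6-1 was 48.82 (SE 9.90, adjusted p = 0.0289). Each of these passed in 2 of the 8 fits that left out 1 library, those without ref6 replicate 1 or 2. In the other 6 the adjusted p was 0.0572 to 0.251 for PR5 in brm ref6 minus WT, 0.0645 to 0.132 for PR5 over ref6-1 and 0.0643 to 0.127 for PBS3. No other gene of the 10 tested from these lists passed in any contrast.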

How the data were processed

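ChIP-seq peak lists were analysed for 17 of the 27 samples; the other 10 were inputs, not analysed here. Per the submitters' processing notes, Bowtie2 2.2.5, MACS 1.4 and the TAIR10 genome were used. Which control and options the caller was given is not stated in the labels. The lists deposited by the authors give, per library, peak positions and a score, −10 log10 of the MACS p-value (lowest value 50.0). Depth is unknown. Coordinates are 1-based TAIR10 peak positions. Gene bodies came from the supplied TAIR10.1 gene table, without strand. Peaks overlapped 33.4% of gene bodies unshifted and 27.7% to 28.8% when shifted by 1000 or 2000 bp. FLS2 was matched by its locus identifier.

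Coverage is the percent of a gene body under merged peaks. It was fitted with limma 3.58.1 (R 4.3.3; trend and robust variance) over all 8 H3K27me3 libraries. The procedure was tested on simulated data. WRKY groups, roles and pathway lists were written from general knowledge, and the members and lists were chosen with earlier results of these data known. Genes named are WRKY genes called or past the threshold in any contrast, marked in both libraries of a genotype, among the 10 highest scores of a first GFP list, in both first lists, or in all later lists of a fusion or in all of one genotype and none of the other, and called pathway genes; other genes were chosen as examples after their values were seen. Alternatives were other bounds on coverage, score, list length, territory and variance, an arcsine scale, a replicate block, and leaving out each library. Correlations of within-genotype differences ranged from −0.214 to 0.0951, so replicate numbers were not taken to pair libraries. A planned description of promoter motifs was not run because no sequence was at hand.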

Additional observations from a re-analysis of the deposited data

How the results depend on the processing

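Lists without depth limit every call: a gene near 50% coverage can change sides, and with 2 libraries per genotype 1 library decides many calls. Of 25 differences at single genes fitted under each setting, 1 changed sign: WRKY23 in ref6 minus WT, 3.42 percentage points, was −0.72 without ref6 replicate 2 (−0.72 to 7.55 over the fits that left out 1 library). The cause was not tested for the changes below. Lost, gained and GFP calls under other settings were counted for WRKY genes only, without a share of all genes.

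With any overlap as the mark, WRKY counts became 1 gained in brm against WT, 1 lost in ref6, 2 lost in brm ref6, 2 lost and 2 gained in brm ref6 against brm, and 0 lost and 0 gained against ref6. With at least 80% of the body they were 0 lost and 5 gained in brm, 1 lost and 2 gained in ref6, 2 lost in brm ref6, 1 gained in brm ref6 against brm, and 0 lost and 0 gained against ref6. With scores of at least 100 there were 1 gained in brm, 1 gained in brm ref6 against WT, 2 lost and 1 gained against brm, and 0 gained against ref6. With lists of equal length (the 5582 best H3K27me3 peaks or 1466 best GFP peaks) there were 1 gained in brm, 1 lost in ref6, 1 gained in brm ref6 against WT, 1 gained against brm and 0 gained against ref6. Leaving out each library gave 1 to 2 lost in brm, 3 to 13 lost and 1 to 7 gained in ref6, 4 to 8 lost in brm ref6 against WT, 4 to 8 lost and 0 to 1 gained against brm, and 1 to 7 lost and 1 to 8 gained against ref6.

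For GFP peaks, counting gene bodies alone left 4 WRKY genes in REF6-GFP brm replicate 2, and 7 and 4 in REF6-GFP WT replicates 1 and 2. Scores of at least 100 left 2 in BRM-GFP ref6 replicate 1, 4 in BRM-GFP WT, 3 in REF6-GFP brm replicate 2, 9 with both first lists, 3 in all 4 later REF6-GFP lists, 1 in all 3 later BRM-GFP lists and 1 with BRM-GFP in ref6 and not in WT. Equal lengths left 14 in the first BRM-GFP list, 11 in the first REF6-GFP list, 3 in both, 7 in BRM-GFP ref6 replicate 1, 6 in REF6-GFP WT replicate 1, 1 with BRM-GFP in ref6 and not WT, and 2 the other way. Leaving out each later library gave 4 to 5 WRKY genes with BRM-GFP in ref6 and not WT, 1 to 2 the other way, 0 to 1 with REF6-GFP in brm and not WT, and 0 to 1 the other way.

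In the limma fit, the arcsine scale put 3 genes past the threshold for brm minus WT, 315 for ref6 minus WT, 322 for brm ref6 minus WT, 382 for brm ref6 minus brm (1 WRKY gene), 1 for brm ref6 minus ref6 and 1 for the brm-1 contrast. Without trend and robust variance there were 22 for brm minus WT (1 WRKY gene), 208 for ref6 minus WT, 248 for brm ref6 minus WT, 384 for brm ref6 minus brm (2 WRKY genes), 3 for brm ref6 minus ref6, 4 for the interaction and 27 for the brm-1 contrast (1 WRKY gene). Scores of at least 100 gave 21 for brm minus WT, 57 for ref6 minus WT and 73 for brm ref6 minus WT (0 WRKY genes in each of the last 2) and 441 for the ref6-1 contrast. Equal lengths gave 48 for ref6 minus WT and 27 for brm ref6 minus WT (0 WRKY genes in both), 66 for brm ref6 minus brm, and 231 for the ref6-1 contrast (1 WRKY gene). With a replicate block there were 0 genes and 0 WRKY genes for ref6 minus WT and for brm ref6 minus WT, 0 genes for brm ref6 minus brm, and 315 genes and 1 WRKY gene (WRKY43, adjusted p = 0.0317) for the ref6-1 contrast; the numbers did not pair the libraries (correlations −0.214 to 0.0951).

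Leaving out each library gave 0 to 83 genes for brm minus WT, 0 to 796 for ref6 minus WT (0 to 7 WRKY genes), 0 to 568 for brm ref6 minus WT (0 to 2), 0 to 731 for brm ref6 minus brm (0 to 3), 0 to 347 for brm ref6 minus ref6 (0 to 2), 0 to 135 for the interaction, 0 to 450 for the brm-1 contrast (0 to 6) and 52 to 1584 for the ref6-1 contrast (0 to 14). Where a genotype kept 1 library, that library was assumed to vary like the other genotypes. Over the 14 alternatives the adjusted p ranged from 0.00497 to 0.248 for WRKY43 in ref6 minus WT (past the threshold in 7), from 0.00512 to 0.247 in brm ref6 minus WT (6) and from 0.00238 to 0.0561 in the ref6-1 contrast (12), from 0.0132 to 0.304 for WRKY23 in brm ref6 minus WT (6), and from 0.0344 to 0.376 for WRKY57 in the ref6-1 contrast (5). For WRKY23 in brm minus WT it ranged from 0.0289 to 0.593 (1). For PR5 it ranged from 0.00347 to 0.251 in brm ref6 minus WT (6) and from 0.00311 to 0.132 in the ref6-1 contrast (5), and for PBS3 from 0.00395 to 0.127 in the ref6-1 contrast (6).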
